A study of Rattus norvegicus with 12 samples.

Results

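Catecholamine signalling through cyclic AMP was followed in rat lung with 8 genes: the adrenergic receptor genes Adrb1 and Adra1b, the transcription factor genes Creb1 and Crem, the kinase gene Sik1, the phosphodiesterase genes Pde4b and Pde4d, and Penk, which encodes proenkephalin. They were taken as the probe sets whose symbol in the array's annotation was one of these 8, which gave 20 of the 20826 probe sets with 1 symbol and 8 of 14217 genes. None was removed by a filter on low values. Crem had 6 probe sets, Creb1 had 4, Pde4d had 3, Sik1 and Pde4b had 2 each, and Adrb1, Adra1b and Penk had 1 each.

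The values came from 12 Affymetrix arrays of lung RNA from male wild-type Sprague Dawley rats of 250 to 350 g, with 3 arrays in each of 4 groups. In BD/SEW, brain death was caused with a balloon catheter that was inflated in the extradural space, and SEW-2871, an agonist of the sphingosine 1-phosphate receptor S1P1, was injected intravenously at 0.1 mg/kg 15 min later. BD had the brain death alone, SEW had the same intravenous dose alone, and sham was the sham-operated control. The labels give neither the time between these procedures and the removal of the lung nor the age of the rats, and they do not say whether the SEW rats had a sham operation. They do not number the animals either, so p-values measure the spread between these samples.

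Noradrenaline and adrenaline act on adrenergic receptors. The beta receptors couple to the stimulatory G protein, which activates adenylyl cyclase and raises cyclic AMP, while the alpha-1 receptors couple to the phospholipase C pathway. Cyclic AMP activates protein kinase A, which phosphorylates CREB, and CREB bound to the cyclic AMP response element then induces a set of early genes. Several of these are brakes on the same pathway. Crem yields ICER, a short repressor made from an internal promoter, Sik1 encodes a kinase that keeps the coactivators of CREB in the cytoplasm, and the PDE4 enzymes degrade cyclic AMP. In the lung, beta receptors are best known for relaxing airway smooth muscle and for driving the clearance of alveolar fluid. Brain death is known for an early surge of circulating catecholamines.

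The promoter sequences of the receptor gene that rose after brain death and of the 2 cyclic AMP regulated genes that fell with and without the agonist are shown, because the response element is a matter of letters. They are RefSeq windows of 300 bases on build GRCr8, from 250 bases before a transcript start to 50 after it, and 15 such windows matched 7 of the 8 genes. Capitals mark TGACGTCA, the palindromic response element, or TGACG, its shorter form, searched on both strands, so that CGTCA in capitals is TGACG on the other strand. TGACGTCA holds the shorter form on both strands.
Crem, chr17:58984547-58984846, plus strand: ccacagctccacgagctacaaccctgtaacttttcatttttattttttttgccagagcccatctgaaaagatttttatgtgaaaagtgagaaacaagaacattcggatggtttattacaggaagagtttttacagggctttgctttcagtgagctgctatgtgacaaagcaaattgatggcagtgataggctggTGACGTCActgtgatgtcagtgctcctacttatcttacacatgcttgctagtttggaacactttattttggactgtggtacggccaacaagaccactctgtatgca
Crem, chr17:58985240-58985539, plus strand: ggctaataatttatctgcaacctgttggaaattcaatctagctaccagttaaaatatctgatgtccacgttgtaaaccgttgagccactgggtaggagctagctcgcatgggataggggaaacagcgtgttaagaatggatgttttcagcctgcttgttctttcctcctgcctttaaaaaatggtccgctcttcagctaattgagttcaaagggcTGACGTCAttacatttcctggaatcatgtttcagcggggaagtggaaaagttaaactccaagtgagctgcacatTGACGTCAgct
Sik1, chr20:9958597-9958896, minus strand: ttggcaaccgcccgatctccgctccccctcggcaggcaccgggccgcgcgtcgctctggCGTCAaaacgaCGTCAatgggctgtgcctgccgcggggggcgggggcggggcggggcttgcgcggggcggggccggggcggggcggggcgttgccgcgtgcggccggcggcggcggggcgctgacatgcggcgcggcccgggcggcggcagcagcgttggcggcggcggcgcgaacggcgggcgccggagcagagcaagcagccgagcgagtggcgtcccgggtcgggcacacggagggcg
Adrb1, chr1:265776853-265777152, plus strand: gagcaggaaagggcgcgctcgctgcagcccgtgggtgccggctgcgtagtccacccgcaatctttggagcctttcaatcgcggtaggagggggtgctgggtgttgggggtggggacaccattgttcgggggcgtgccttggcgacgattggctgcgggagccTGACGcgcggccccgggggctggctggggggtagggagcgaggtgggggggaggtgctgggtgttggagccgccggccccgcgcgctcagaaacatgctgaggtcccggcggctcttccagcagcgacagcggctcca
The 2 Crem windows were the only ones of the 15 that held TGACGTCA, a motif present in 1.83% of the 33469 windows of all genes. The first held 1 copy and the second 2. The third Crem window, at chr17:58933816-58934115, held 2 copies of TGACG alone. Sik1 held 2 copies of the shorter form, both as CGTCA, and Adrb1 held 1, a motif present in 21.2% of all windows. TGACG was also in 1 of 2 Creb1 windows and 2 of 5 Pde4d windows, and in neither Pde4b window nor the Adra1b window. These matches describe the letters of the windows, and which transcript each probe set measures was not determined.

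The lung identity of the samples was plain on all 12 arrays. The mean of 9 alveolar markers, surfactant genes among them, lay between 12.69 and 13.29 on the log2 scale, with Sftpc never under 14.32. Transcripts of other tissues and cell types varied with the groups. The mean of 17 cardiac muscle markers was 5.82 to 7.9 in BD/SEW, 5.93, 11.22 and 6.98 in BD replicates 1 to 3, 5.61 to 7.26 in SEW and 9.27 to 10.25 in sham. The mean of 12 adipocyte markers was 6.8 to 7.47 in BD/SEW, 6.72, 9.24 and 6.87 in BD, 6.97 to 7.37 in SEW and 8.86 to 9.76 in sham. The mean of 6 airway epithelium markers was 9.79 to 10.44 in BD/SEW, 10.18, 12.34 and 11.28 in BD, 8.89 to 11.22 in SEW and 12.32 to 12.57 in sham. The mean of 7 neutrophil markers was 11.3 to 11.68 in BD/SEW, 10.41 to 11.04 in BD, 8.55, 10.56 and 8.94 in SEW and 9.77 to 10.81 in sham. When arrays were weighted by how well they followed their group, the lowest weights were 0.247 for the third sham array and 0.318 for the second SEW array. S1pr1, the gene of the receptor that the agonist binds, averaged 13.33, 13.27, 13.28 and 13.34 in BD/SEW, BD, SEW and sham and was called in none of the 6 comparisons. In whole lung, fewer cells of a type and less RNA per cell cannot be told apart.

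**Figure D1:**
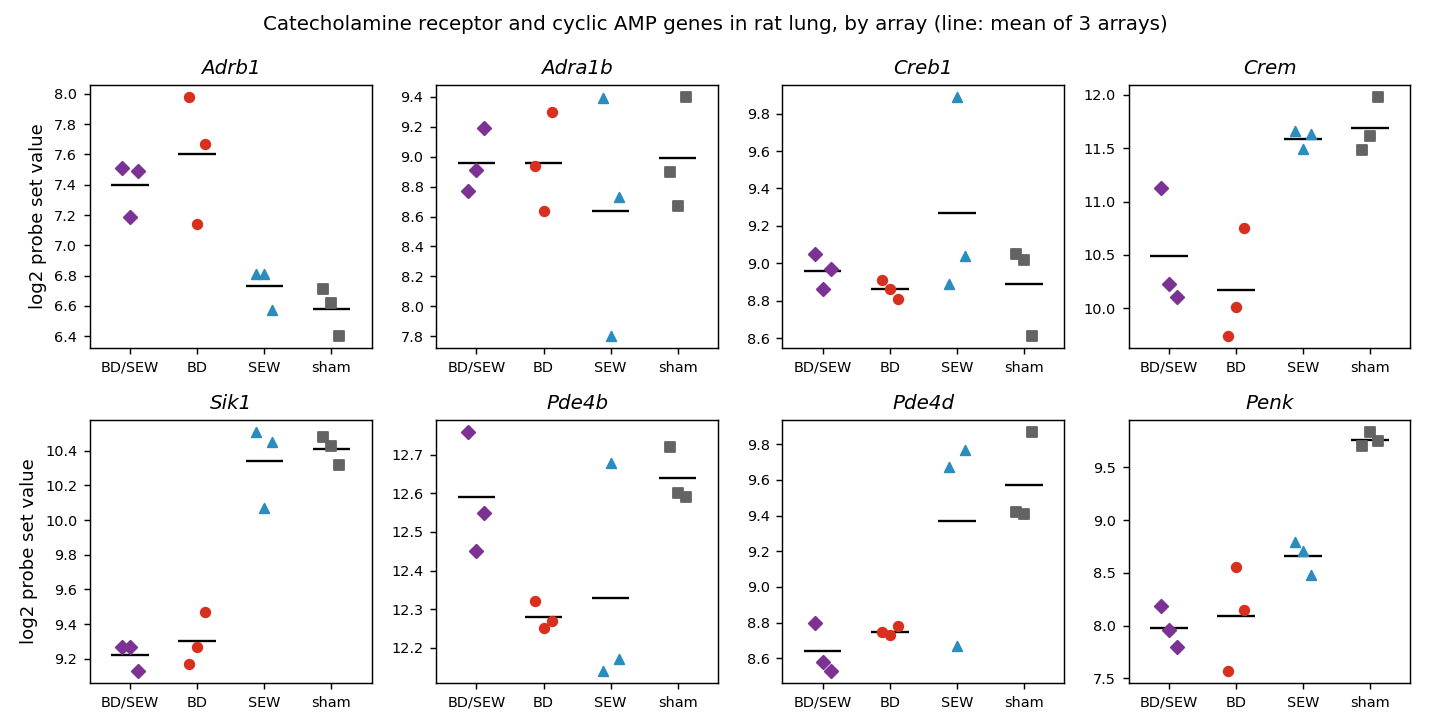
Log2 probe set value of each of the 8 genes (y axis, one scale per gene) on each of the 12 arrays, with groups along the x axis and a line at the mean of 3 arrays. Sik1 lies between 9.13 and 9.47 on the 6 arrays with brain death and between 10.07 and 10.51 on the 6 without it, while Adra1b overlaps between all groups.

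Adrb1, the gene of the beta-1 adrenergic receptor, was higher on every array with brain death than on every array without it. Its log2 values were 7.51, 7.19 and 7.49 in BD/SEW and 7.98, 7.14 and 7.67 in BD. They were 6.81, 6.81 and 6.57 in SEW and 6.71, 6.62 and 6.4 in sham. The groups with and without brain death were thus separated by a gap between 6.81 and 7.14, and the order of group means was BD, BD/SEW, SEW and sham. Adrb1 rose by 1.02 ± 0.19 in BD against sham (log2 difference ± SE, n = 3 per group; adjusted p = 0.04), which is 2.03-fold. It rose by 0.67 ± 0.19 in BD/SEW against SEW (adjusted p = 0.048). The neighbours in the order, BD/SEW and BD on one side and SEW and sham on the other, differed by -0.2 and 0.15 with intervals that held 0.

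The Adrb1 calls lay close to the threshold. Of the 12 fits with 1 array left out, BD against sham was called in 2, without BD replicate 2 or SEW replicate 2, with the other adjusted p reaching 0.15, and BD/SEW against SEW was called in 3, without sham replicate 3, BD replicate 1 or BD replicate 2, again with adjusted p up to 0.15. With the cardiac marker mean as a covariate the difference was 0.82 in BD against sham (adjusted p = 0.11) and 0.7 in BD/SEW against SEW (adjusted p = 0.016). Both comparisons kept the direction in each of these fits. Heart muscle also expresses Adrb1. The cardiac mean was 9.27 to 10.25 in sham, the group with the lowest Adrb1 mean, and 5.82 to 7.9 in BD/SEW. BD replicate 2, with the highest cardiac mean of all arrays (11.22), had the lowest Adrb1 value of the arrays with brain death, 7.14. The part of cardiac tissue in these differences was not tested beyond this covariate. The cardiac means of BD/SEW and of SEW did not overlap those of sham. In comparisons of these groups with sham, the covariate and the group can hardly be separated, so a lost call there decides nothing.

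Adra1b, the gene of an alpha-1 receptor, showed no such split. It measured 8.77, 8.91 and 9.19 in BD/SEW, 8.94, 8.64 and 9.3 in BD, 9.39, 7.8 and 8.73 in SEW and 8.9, 8.67 and 9.4 in sham. All groups overlapped, the widest spread was in SEW, where replicate 2 was the lowest of all arrays, and the gene was called in none of the 6 comparisons. The interval of BD minus sham, -0.77 to 0.71, leaves room for a change of either sign. Of the other adrenergic receptor genes measured, Adra1a, Adra1d, Adra2c and Adrb3 averaged 4.54 to 5.42 in every group, under the lower quartile of the arrays (5.56 to 5.66), Adra2a averaged 5.92, 5.98, 5.94 and 6.11 in BD/SEW, BD, SEW and sham, and Adra2b averaged 6.37, 6.47, 6.35 and 6.41. In the list of 8 measured adrenergic receptor genes, Adrb1 was the only one called, in each of the 3 comparisons of a brain-death group with a group without it.

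Creb1, the gene of the factor that cyclic AMP activates by phosphorylation, was called in none of the 6 comparisons. Its brightest probe set, 1375655_at, measured 9.05, 8.86 and 8.97 in BD/SEW, 8.91, 8.86 and 8.81 in BD, 8.89, 9.89 and 9.04 in SEW and 9.05, 9.02 and 8.61 in sham. SEW replicate 2 stood above the other 11 arrays, which lay within 8.61 to 9.05. BD minus sham was -0.03 ± 0.22, with a 95% interval of -0.52 to 0.45. The other 3 probe sets were dim, between 3.88 and 5.89, and none was called.

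Crem, the gene of the cyclic AMP responsive modulator and of ICER, fell in both brain-death comparisons. Probe set 1378925_at measured 11.13, 10.23 and 10.11 in BD/SEW and 9.74, 10.01 and 10.75 in BD. It measured 11.66, 11.49 and 11.63 in SEW and 11.48, 11.61 and 11.98 in sham. No array with brain death reached the lowest array without it, and BD/SEW replicate 1 came nearest. Crem fell by 1.52 ± 0.29 in BD against sham (adjusted p = 0.04), to 0.348 of the sham level, and fell by 1.1 ± 0.29 in BD/SEW against SEW (adjusted p = 0.031). Its order of means was sham, SEW, BD/SEW and BD, and the neighbours sham and SEW differed by -0.1, with an interval of -0.72 to 0.53 that held 0, as did the interval of BD/SEW against BD, -0.3 to 0.95.

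The 6 Crem probe sets were all lower in BD than in sham, by 0.62 to 2.03 as fitted over every probe set, and at all 6 every BD array lay below every sham array. Of the 6, 4 were called lower. The largest difference was at 1393550_at, which fell by 2.03 ± 0.32 (adjusted p = 0.023). It measured 6.61, 6.45 and 7.28 in BD and 8.67, 8.54 and 9.21 in sham. The 6 were again all lower in BD/SEW against SEW, by 0.53 to 1.22, and 3 were called. BD/SEW replicate 1 was the highest of its group at all 6 probe sets, and 1393550_at measured 8.06, 6.92 and 6.79 there. The gene-level call depended on single arrays: BD against sham was called in 3 of the 12 fits with 1 array left out, without BD replicate 3, SEW replicate 2 or BD/SEW replicate 1, and the adjusted p ran from 0.021 to 0.16. BD/SEW against SEW was called in 7 of the 12, and not without any single SEW array or without BD/SEW replicate 2 or 3. With the cardiac covariate the BD difference was -1.64 (adjusted p = 0.088), and without BD 2, SEW 2 and sham 3 at once it was -1.3 (adjusted p = 0.1).

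**Figure D2:**
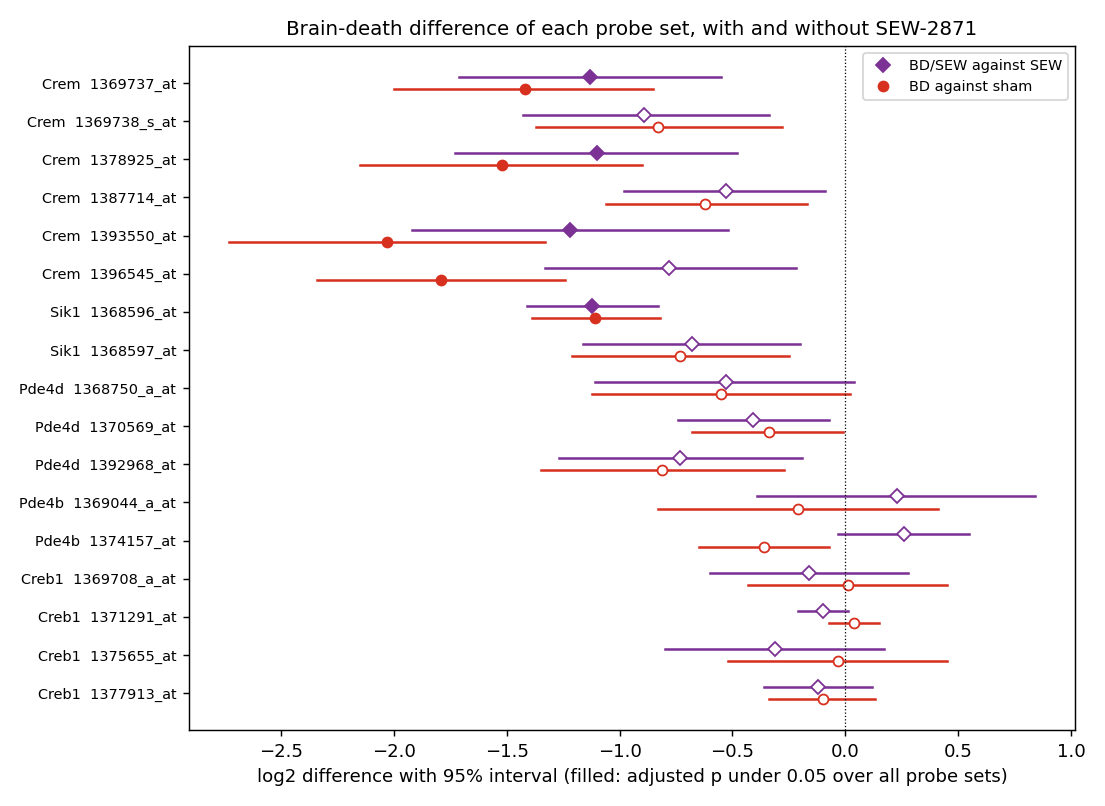
Log2 difference with its 95% interval (x axis) for each probe set of Crem, Sik1, Pde4d, Pde4b and Creb1 (y axis), in BD/SEW against SEW (diamonds) and BD against sham (circles), filled where the adjusted p over all probe sets was under 0.05. All 6 Crem, both Sik1 and all 3 Pde4d probe sets lie below 0 in both comparisons.

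Sik1, the gene of a kinase that cyclic AMP induces and that restrains CREB coactivators, had the smallest adjusted p of the 8 in each comparison of a brain-death group with a group without it. Probe set 1368596_at measured 9.27, 9.27 and 9.13 in BD/SEW and 9.17, 9.27 and 9.47 in BD. It measured 10.51, 10.07 and 10.45 in SEW and 10.48, 10.43 and 10.32 in sham. A gap between 9.47 and 10.07 separated the arrays with and without brain death. Sik1 fell by 1.11 ± 0.13 in BD against sham (adjusted p = 0.0037), to 0.464 of the sham level, and fell by 1.12 ± 0.13 in BD/SEW against SEW (adjusted p = 0.00038). Both calls held in all 12 fits with 1 array left out and with the cardiac covariate (adjusted p = 0.016 and 0.00081). The dimmer probe set 1368597_at was also lower with no overlap in both comparisons, by 0.73 and 0.68, without passing over all probe sets (adjusted p = 0.22 and 0.094).

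The interaction asks whether the brain-death difference with the agonist departed from that without it. For Sik1 it was -0.01 ± 0.18, with a 95% interval of -0.41 to 0.38.

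Pde4d, the gene of a phosphodiesterase that degrades cyclic AMP, was lower after brain death without passing the test. Probe set 1392968_at measured 8.8, 8.58 and 8.53 in BD/SEW and 8.75, 8.73 and 8.78 in BD, against 9.67, 8.67 and 9.77 in SEW and 9.42, 9.41 and 9.87 in sham. SEW replicate 2 was the 1 array without brain death that lay within the range of the arrays with it. BD minus sham was -0.81 ± 0.24 (adjusted p = 0.2) and BD/SEW minus SEW was -0.73 ± 0.24 (adjusted p = 0.085). Without SEW replicate 2 the gene was called in BD against sham (adjusted p = 0.022) and in BD/SEW against SEW (adjusted p = 0.0014). All 3 probe sets were lower in both comparisons, by 0.34 to 0.81 in BD against sham and by 0.41 to 0.73 in BD/SEW against SEW.

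Pde4b, the gene of a related phosphodiesterase, did not follow Pde4d. Probe set 1374157_at measured 12.76, 12.45 and 12.55 in BD/SEW, 12.32, 12.25 and 12.27 in BD, 12.14, 12.68 and 12.17 in SEW and 12.72, 12.6 and 12.59 in sham. The BD arrays lay below all sham arrays and below all BD/SEW arrays, while 2 of the 3 SEW arrays were the lowest of all 12. BD minus sham was -0.36 ± 0.13 (adjusted p = 0.33), BD/SEW minus SEW was 0.26 ± 0.13 (adjusted p = 0.28), and the interaction was 0.61 ± 0.19 (adjusted p = 0.2). None of these passed. Without SEW replicate 2 the interaction was called (adjusted p = 0.012). The other probe set, 1369044_a_at, measured 11.08 to 12.17, and its arrays overlapped in each pairwise comparison. There BD minus sham was -0.21 ± 0.28 and the interaction was 0.44 ± 0.4 (adjusted p = 0.84 and 0.71 over all probe sets). Neutrophils express Pde4b, and SEW replicate 2 was also high for the neutrophil markers, at 10.56 against 8.55 and 8.94 in the other SEW arrays. The neutrophil means of BD (10.41 to 11.04) and sham (9.77 to 10.81) overlapped, while 1374157_at was lower on every BD array than on every sham array. The part of neutrophils in the Pde4b values was not tested.

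Penk, the gene of proenkephalin, whose promoter is a classical target of cyclic AMP, had its highest values in sham. It measured 8.19, 7.96 and 7.8 in BD/SEW and 7.57, 8.56 and 8.15 in BD. It measured 8.79, 8.71 and 8.48 in SEW and 9.7, 9.84 and 9.75 in sham. The sham arrays lay above all 9 others, and the order of means was sham, SEW, BD and BD/SEW. Penk fell by 1.67 ± 0.21 in BD against sham (adjusted p = 0.0043), to 0.314 of the sham level, and fell by 1.1 ± 0.21 in SEW against sham (adjusted p = 0.016), and both calls held in all 12 fits with 1 array left out. It differed by -0.68 ± 0.21 in BD/SEW against SEW without passing (adjusted p = 0.065), with BD/SEW wholly below SEW. The neighbours BD and BD/SEW overlapped. The interaction, 0.99 ± 0.29, did not pass (adjusted p = 0.18), and did without BD replicate 2 (adjusted p = 0.042).

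Markers of heart muscle differed between groups alongside Penk. Heart muscle expresses Penk, and the cardiac mean was 9.27 to 10.25 in sham against 5.61 to 7.26 in SEW, so this difference between groups and that of Penk run the same way. With the cardiac covariate the SEW difference was -0.79 and was no longer called (adjusted p = 0.28), while the BD difference was -1.51 and was called (adjusted p = 0.017). Because SEW and sham did not overlap in the cardiac mean, that fit can hardly separate covariate from group, and the lost call decides nothing. BD replicate 2, with a cardiac mean of 11.22, measured 8.56 for Penk, the highest of the BD arrays and below every sham array. The airway markers were also highest in sham, at 12.32 to 12.57 against 8.89 to 11.22 in SEW, and 2 of the 6 were called lower in SEW against sham. The part of cardiac tissue in the Penk differences was not tested beyond the covariate, and that of airway epithelium was not tested.

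**Figure D3:**
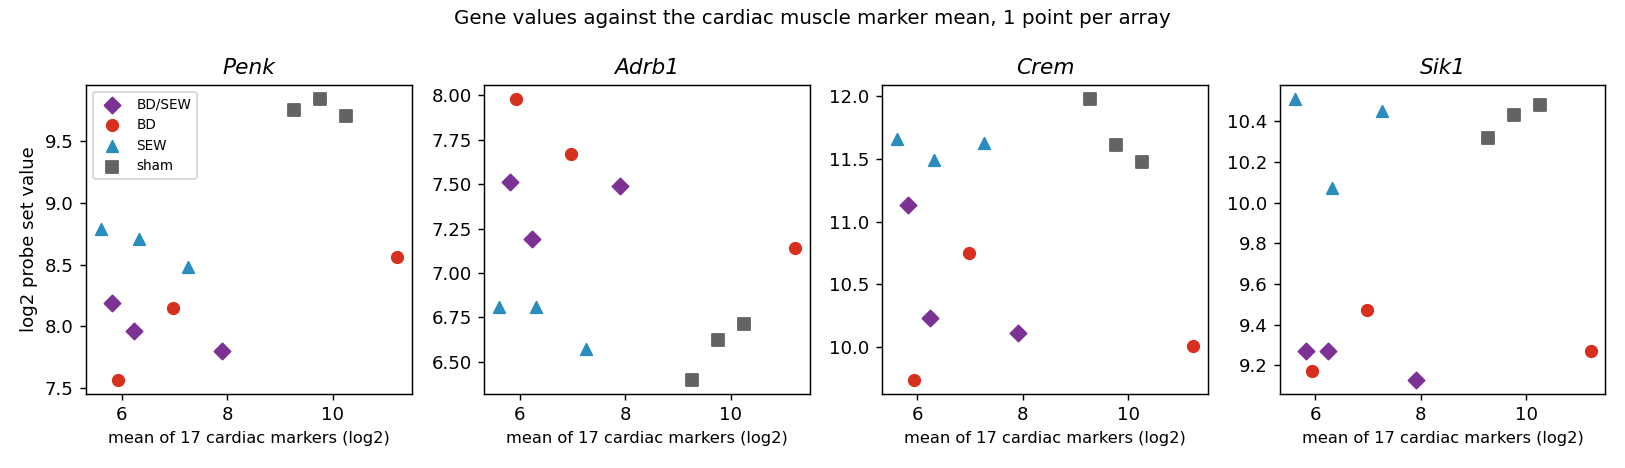
Log2 value of Penk, Adrb1, Crem and Sik1 (y axes) against the mean of 17 cardiac muscle markers (x axis, log2), 1 point per array and a colour and shape per group. BD replicate 2 has the highest cardiac mean, 11.22. It lies between the other BD arrays for Crem and Sik1, is the lowest brain-death array for Adrb1 (7.14) and the highest BD array for Penk (8.56). SEW, with cardiac means of 5.61 to 7.26, lies with sham for Crem, Sik1 and Adrb1 and below sham for Penk.

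Counted together, 1 of the 8 genes rose and 3 fell in BD against sham (Adrb1; Crem, Sik1 and Penk), where 0.591% of all 14217 genes were called, 0.211% higher and 0.38% lower. The median difference of the 8 was -0.58, against 0 over all genes. Fitted on the BD and sham arrays alone, Sik1 was called (adjusted p = 0.038) and Penk (0.075), Crem (0.12) and Adrb1 (0.17) were not. BD lay wholly above or below sham in 6 of the 8, against 15.7% of all genes. Of the 8, 1 rose and 2 fell in BD/SEW against SEW (Adrb1; Crem and Sik1), where 9.79% of all genes were called, 4.75% higher and 5.04% lower, and the arrays did not overlap in 4 of the 8, against 31.8% of genes. The median of the 8 was -0.49, against -0.01 over all genes. The group means of these 2 comparisons share no array. Their calls are not independent, because the spread of each gene was fitted over all arrays together. Crem and Sik1 fell in both comparisons, as did 34 genes in all (0.239%). Adrb1 rose in both, as did 21 genes in all (0.148%).

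With the agonist compared with sham, only Penk of the 8 was called, where 5.84% of all genes were called, 2.43% lower. It was also the only one whose SEW and sham arrays did not overlap, against 27.1% of all genes. The Sik1 difference in SEW against sham was -0.07, with an interval of -0.35 to 0.21, and that of Crem was -0.1. In BD/SEW against BD, which asks what the agonist changed after brain death, 0 of the 8 were called by limma, and of all genes 0.0141% were called. At an unadjusted p under 0.05 there was 1, Pde4b, with 0.31 ± 0.13 (adjusted p = 0.91), and its arrays did not overlap, which held for 12.4% of all genes. At the dimmer Pde4b probe set the BD/SEW and BD arrays overlapped. The other 7 intervals of BD/SEW against BD held 0. They ran from -0.36 to 0.2 for Sik1, from -0.57 to 0.35 for Penk and from -0.62 to 0.22 for Adrb1.

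BD/SEW against sham shares the sham arrays with the comparisons above and is given for its own values. Adrb1 rose by 0.82 ± 0.19, while Crem fell by 1.2 ± 0.29, Sik1 fell by 1.19 ± 0.13 and Penk fell by 1.78 ± 0.21, so that 4 of the 8 were called, where 2.87% of all genes were, 1.7% higher and 1.17% lower. The adjusted p-values of Adrb1, Crem, Sik1 and Penk were 0.045, 0.048, 0.0022 and 0.0027. In 5 of the 8 BD/SEW and sham did not overlap, against 25.9% of all genes. Adrb1 was called in 3 of the 12 fits with 1 array left out, without BD replicate 1, BD replicate 2 or SEW replicate 2. Crem was called in 5 of the 12, without any 1 of the BD arrays, SEW replicate 2 or BD/SEW replicate 1. The highest adjusted p among these fits was 0.16 for Adrb1 and 0.2 for Crem. With the cardiac covariate Sik1 remained called (adjusted p = 0.045), and Adrb1 (0.46, adjusted p = 0.56), Crem (-1.41, adjusted p = 0.26) and Penk (-1.49, adjusted p = 0.059) did not. The cardiac means of BD/SEW and sham did not overlap, so this fit can hardly separate covariate from group. Crem lost its call although its difference did not shrink. For the interaction 0 of the 8 were called, where 0.95% of all genes were, and those with an unadjusted p under 0.05 were Pde4b and Penk.

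**Figure D4:**
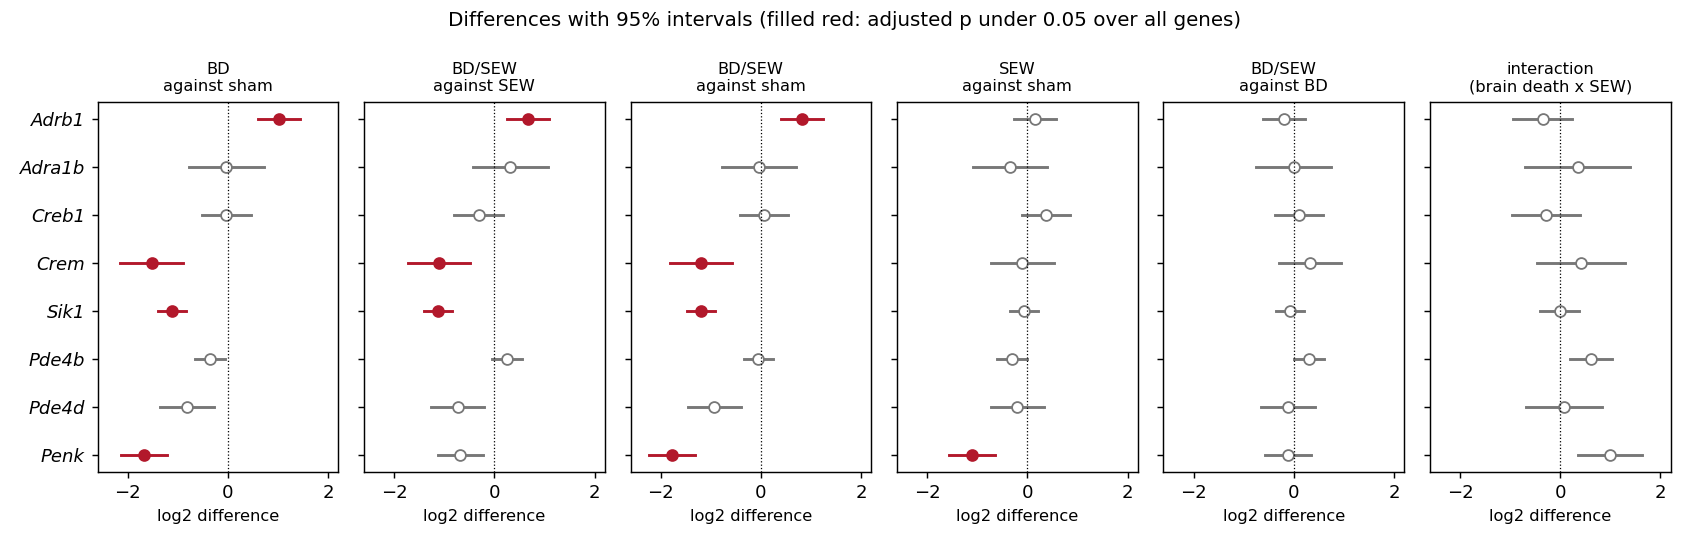
Log2 difference with its 95% interval (x axes) of the 8 genes (y axis) in the 5 pairwise comparisons and the interaction, filled red where the adjusted p over all genes was under 0.05. Crem and Sik1 lie below 0 and Adrb1 above 0 in the 3 comparisons of a brain-death group with a group without it, and the intervals of these 3 genes hold 0 in BD/SEW against BD.

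A wider list of 25 genes that cyclic AMP is known to induce, 5 of the 8 among them, was measured in full. Of these, Sst, Cga, Vip and Tat averaged 4.59 to 5.3 in every group, under the lower quartile of the arrays (5.56 to 5.66). They are kept in the counts and medians. In BD against sham 4 of the 25 fell, 0 rose and 21 did not pass, where 0.38% of all genes were called lower. The median of the 25 was -0.59, against 0 over all genes. Without the 5 genes already described, 1 of 20 fell and the median was -0.49. Beyond Crem, Sik1 and Penk, the gene that fell was Dusp1, a phosphatase of MAP kinases, by 0.67 ± 0.1 (adjusted p = 0.019). Dusp1 measured 12.84, 12.83 and 12.79 in BD and 13.66, 13.53 and 13.29 in sham, and BD lay wholly below sham. The count of 4 lower was 2 with the cardiac covariate, Penk and Sik1, and became 9 lower and 1 higher when 3 arrays (the second of BD, the second of SEW and the third of sham) were left out at once. Many of these genes also answer to growth factors, stress or inflammatory signals, so the list does not measure cyclic AMP alone.

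Of the 25, 3 rose and 5 fell in BD/SEW against SEW, where 9.79% of all genes were called. The median of the 25 was -0.2, against -0.01 over all genes. Without the 5 genes already described, 3 of 20 rose, 3 fell and the median was -0.04. Those that fell were Crem, Sik1, Dusp1 (by 0.68 ± 0.1), the orphan receptor gene Nr4a2 and the G protein regulator gene Rgs2. Nr4a2 measured 7.79, 7.73 and 7.94 in BD/SEW and 8.88, 8.85 and 8.63 in SEW, a fall of 0.97 ± 0.11 (adjusted p = 0.00043). Those that rose were Atf3, Egr1 and Junb, early genes of stress and growth signals. Atf3 measured 12.17, 12.06 and 12.17 in BD/SEW and 10.43, 10.03 and 9.71 in SEW, a rise of 2.08 ± 0.28 (adjusted p = 0.001). The BD/SEW arrays lay wholly above the SEW arrays for Atf3, and Junb rose by 1.55 ± 0.3 (adjusted p = 0.008). Neutrophil markers were higher in this comparison too, with 4 of 7 called higher and a median of 1.62. SEW replicate 2, at 10.56 the highest SEW array for these markers, was also the highest of its group for Junb (11.12 against 9.99 and 9.72) and for Egr1 (11.52 against 10.62 and 10.74). For Atf3 it was not, at 10.03 against 10.43 and 9.71. The part of neutrophils in these differences was not tested. Without the 3 arrays named above, 6 of the 25 rose and 7 fell.

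In SEW against sham 3 of the 25 fell, Penk, Nr4a3 (by 1.1 ± 0.27, adjusted p = 0.04) and Egr1 (by 1.27 ± 0.33, adjusted p = 0.048), and none of them was called with the cardiac covariate. Of all genes 2.43% were called lower there. In BD/SEW against BD 0 of the 25 were called. In BD/SEW against sham, where 2.87% of all genes were called, 1 rose and 7 fell, of which Sik1 alone was still called once the cardiac mean was a covariate. Neither SEW nor BD/SEW overlapped sham in the cardiac mean, so the calls lost with this covariate do not show what caused the differences.

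**Figure D5:**
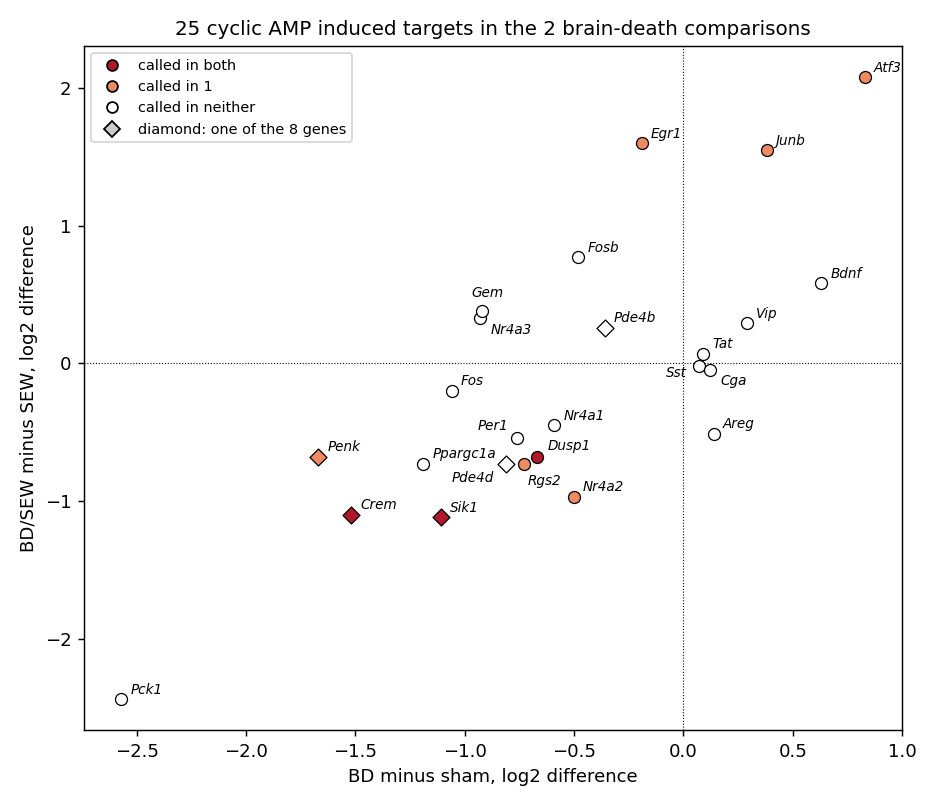
Log2 difference of 25 cyclic AMP induced genes in BD/SEW minus SEW (y axis) and BD minus sham (x axis). The differences in these comparisons share no array, while the calls rest on a spread fitted over all arrays. Diamonds are 5 of the 8 genes, and colour gives the number of these comparisons in which a gene was called. Crem, Sik1 and Dusp1 lie below 0 and are called in both, while Atf3, Egr1 and Junb are called only on the y axis.

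The genes whose levels ran most nearly alongside those of a called gene were sought by Pearson's r over the 12 arrays, among the other 14216 genes. For Sik1 these were Rgs1, a regulator of G protein signalling (r = 0.98), and Fam222a (r = 0.98), and the gene most opposite to it was the transcription factor gene Mycn (r = -0.96). Rgs1 averaged 7.9, 7.77, 9.99 and 10.04 in BD/SEW, BD, SEW and sham. For Crem they were Slc25a15, a mitochondrial ornithine carrier gene, and Fam43a (r = 0.95 each), and the most opposite was Pde7a (r = -0.91), another phosphodiesterase of cyclic AMP. Pde7a was called higher in BD/SEW against SEW, by 0.64 ± 0.15 (adjusted p = 0.018). For Penk they were Coq10b (r = 0.96) and Hs3st1 (r = 0.94), with Mmp11 most opposite (r = -0.96). For Adrb1 they were Sav1 (r = 0.94) and Icam5 (r = 0.93), with Mgat4a most opposite (r = -0.93). The points are 12 arrays in 4 groups, so these values describe a shared pattern of group levels.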

How the data were processed

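Lung RNA (6 ug per array) was hybridised to 12 arrays. The submitters deposited 1 table of log2 values per probe set. Their processing notes name MAS5, RMA and affy without version or role. Values of equal rank differed by at most 0.22 between arrays, and array medians were 7.34 to 7.41. No read depth applies, so it is the number of arrays that limits precision.

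Of 31042 probe sets, 20826 had 1 symbol, 436 several and 9780 none. A gene was taken at its probe set with the highest mean, which gave 14217 genes with no filter on low values. Group means were fitted over all 12 arrays with limma 3.58.1 in R 4.3.3, with a mean trend and Benjamini-Hochberg adjustment over all genes. Called means a two-sided adjusted p under 0.05, and fits over every probe set were adjusted over all probe sets. The fit was tested on simulated data. The alternatives changed the arrays fitted, their weights, the scaling, the probe set rule, the filter, the threshold, the variance model, the replicate block and the cardiac covariate.

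The 8 genes, the gene lists and the alternatives were chosen with earlier results of these data known. Named beside the 8 were up to 4 called genes of each list per comparison, by p, the 2 genes most like and the 1 least like each called gene, and S1pr1. The other receptor genes were named after their values were seen, as were Sst, Cga, Vip and Tat, and Rgs2, Junb and Egr1 in BD/SEW against SEW. Some measurements are not reported here.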

Additional observations from a re-analysis of the deposited data

How the results depend on the processing

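With 1 array left out at a time (12 fits), BD against sham gave 2 to 5 of the 8 genes called, SEW against sham gave 1 to 2, BD/SEW against BD gave 0, BD/SEW against SEW gave 1 to 4, BD/SEW against sham gave 2 to 5 and the interaction gave 0 to 1. Under the other alternatives the count of 4 in BD against sham moved to 1 where only the compared arrays were fitted, to 2 at the 0.01 threshold and to 2 with the cardiac covariate. The count of 1 in SEW against sham moved to 2 with array weights, to 0 at the 0.01 threshold, to 0 with the cardiac covariate and to 2 without 3 arrays at once (BD 2, SEW 2 and sham 3). The count of 3 in BD/SEW against SEW moved to 5 with array weights and to 1 at the 0.01 threshold, and was 4 with the cardiac covariate (Penk added) and 4 without those 3 arrays, where Crem was not called (adjusted p = 0.059) and Pde4b and Pde4d were. The count of 4 in BD/SEW against sham moved to 2 over every probe set, to 2 at the 0.01 threshold and to 1 with the cardiac covariate. The count of 0 for the interaction moved to 2 with array weights (Pde4b and Penk) and to 1 without those 3 arrays (Pde4b). The cause was not tested. Over all genes and in the same order of comparisons, 84 were called (26 to 227 with 1 array left out), 830 (321 to 1006), 2 (1 to 5), 1392 (790 to 1811), 408 (91 to 634) and 135 (38 to 235). Over the other alternatives these counts ran from 13 to 499, 24 to 1556, 0 to 8, 629 to 2506, 12 to 2685 and 24 to 464. Leaving out dim genes removed Adrb1 from the test.

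The main fit did not take the replicate numbers of the titles as pairs. Same-numbered arrays correlated by -0.186 to 0.375 in their deviations from group means (mean 0.0852), over 0.1 in 8 of 18 pairs. Other-numbered arrays correlated by -0.429 to 0.288 (mean -0.0441), over 0.1 in 4 of 36 pairs, and 9 of 12 arrays correlated best with their own number. Same-numbered arrays were thus more alike on average, and what the numbers stand for was not tested. With a replicate block 3, 1, 0, 3, 3 and 0 of the 8 were called in the 6 comparisons, in the order above, and Crem was not called in BD against sham (adjusted p = 0.058) or in BD/SEW against sham (adjusted p = 0.06).

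Each reversal was of a difference that had not been called. With array weights these were Adra1b 0.14 in BD against sham, Crem 0.05 with Pde4d 0.17 in SEW against sham, Adra1b 0.1 and Creb1 -0.07 in BD/SEW against sham, and Adra1b -0.00 and Pde4d -0.29 in the interaction. With arrays centred on their median, both Adra1b and Creb1 had 0.01 in BD against sham. With the cardiac covariate, Adrb1 was -0.23 in SEW against sham and Penk 0.02 in BD/SEW against BD. With the mean of probe sets, Sik1 was 0.02 in the interaction. Without the 3 arrays at once, Adra1b was 0.34 in BD against sham. For SEW against sham, Adra1b was 0.28, Crem 0.1, Creb1 -0.07, Sik1 0.03 and Pde4d 0.3. Without the same arrays Penk was 0.12 in BD/SEW against BD, Adra1b -0.1 in BD/SEW against SEW, Adra1b 0.17 and Creb1 -0.07 in BD/SEW against sham, and Adra1b -0.44, Creb1 0.17 and Pde4d -0.43 in the interaction. With 1 array left out, Adra1b ran from -0.2 to 0.17 and Creb1 from -0.17 to 0.04 in BD against sham. Crem ran from -0.2 to 0.05 in SEW against sham, where Adra1b ran from -0.72 to 0.07, Sik1 from -0.15 to 0.07 and Pde4d from -0.4 to 0.15. Penk ran from -0.37 to 0.12 in BD/SEW against BD, where Adra1b ran from -0.16 to 0.17 and Sik1 from -0.15 to 0. Adra1b ran from -0.1 to 0.69 in BD/SEW against SEW, and in BD/SEW against sham Adra1b ran from -0.19 to 0.17, Creb1 from -0.07 to 0.14 and Pde4b from -0.14 to 0.02. In the interaction Sik1 ran from -0.15 to 0.07, Pde4d from -0.27 to 0.28, Adra1b from -0.07 to 0.72 and Creb1 from -0.47 to 0.03. Of the differences called, 95 of 144 fits with 1 array left out and 103 of 129 other alternatives kept the call, and the rest kept the direction only.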

Other observations

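Few of the listed genes that act between receptor and response were called, and most genes on the arrays were not called either. The share called over all genes was highest, at 9.79%, where BD/SEW was compared with SEW. It was 2.87% where BD/SEW was compared with sham, and 0.591% where BD was. The lists are too short to show whether their genes were called less often than other genes. Of 12 measured genes of G proteins and adenylyl cyclases, which make cyclic AMP, 0 were called by limma in any of the 6 comparisons, with medians of 0.1 in BD against sham and -0.23 in BD/SEW against SEW. Of 7 genes that desensitise receptors, 1 was called, Arrb1, the gene of beta-arrestin 1, which rose by 0.5 ± 0.12 in BD/SEW against sham (adjusted p = 0.044). With the cardiac covariate or the replicate block, 0 of the 7 were called there. Without BD 2, SEW 2 and sham 3 at once, 3 of the 7 were called higher, Arrb1 among them.

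Of 13 effector genes of cyclic AMP, Prkar2a, a regulatory subunit gene of protein kinase A, rose by 0.32 ± 0.08 in SEW against sham (adjusted p = 0.048) and fell by 0.35 ± 0.08 in BD/SEW against SEW (adjusted p = 0.02). Rapgef3, the gene of the exchange factor Epac1, fell by 0.68 ± 0.19 in BD/SEW against SEW (adjusted p = 0.042). Of 10 genes of catecholamine synthesis, transport and breakdown, Slc22a3, a transporter gene that clears catecholamines from outside neurons, fell by 0.76 ± 0.16 in BD/SEW against sham (adjusted p = 0.033), and no other was called. With the cardiac covariate neither Prkar2a in SEW against sham nor Slc22a3 was called, in comparisons where the cardiac means of the groups did not overlap. The mean of 11 markers of sympathetic nerve and chromaffin cells was 6 to 6.03 in BD/SEW, 5.99 to 6.82 in BD, 5.69 to 5.93 in SEW and 5.98 to 6.71 in sham. Of these, 1 was called in any comparison, Npy, the gene of the sympathetic cotransmitter neuropeptide Y, which rose by 1.66 ± 0.42 in BD/SEW against SEW (adjusted p = 0.028). The median difference of the 11 markers there was 0.08. Npy averaged 10.12, 9.72, 8.47 and 8.58 in BD/SEW, BD, SEW and sham, and was named after its values were seen.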
